A study of Salmo salar with 51 samples.

Results

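The comparison described here sets Atlantic salmon (Salmo salar) just before the yolk sac was used up against fish just after it. The earlier group pooled the 9 arrays of 53, 59 and 65 days post-fertilisation (dpf) and the later group the 6 arrays of 71 and 77 dpf. The differences thus rest on 15 of the 51 arrays of the series, with each time point weighted equally. The spread among fish behind the p-values was estimated over all 51 arrays. Each array held RNA of 1 whole fish of the McConnell (Mowi) strain, raised in fresh water without a treatment, and each time point had 3 fish. The earlier fish were alevins and first fry that still carried yolk, and the later ones were fry and early parr whose yolk had been absorbed between 65 and 71 dpf. On every array the fish was labelled with Cy5 and a common reference pooled from all time points with Cy3, and the dyes were not swapped. A value in the text is the log2 ratio of Cy5 to Cy3, so that 1 unit is a 2-fold difference, and an error is a standard error (SE) unless named otherwise. A probe was kept if 1 or more of these 5 time points had all of its 3 arrays without a flag and at a Cy5 signal of 500 or above, which held for 15099 of the 43689 probes on the array, and 15048 could be tested. A probe could pass through 1 group alone, and the filter then favours a higher value in that group. Of the tested probes, 3353 have a name, which was known only for probes that the authors had listed as changed at some stage of these same arrays.

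A salmon alevin lives on yolk that is taken up through the yolk sac's own tissue and blood vessels, and it has to switch to food caught and digested in the gut once that store is gone. The stomach, intestine, liver and immune defences mature over the same weeks, while the rapid cell division of the embryo slows down. The liver of a fish, as in other vertebrates, secretes most of the clotting factors, protease inhibitors and complement proteins of the blood.

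The median Cy5 signal of the 15 arrays lay between 201.5 and 395, and the lowest ones were on 71 dpf replicate 1 with 201.5, 65 dpf replicate 1 with 217 and 77 dpf replicate 1 with 240.5. All 6 marker probes of skeletal muscle, 7 of red cells, 5 of lens and 5 of liver reached a signal of 500 on all 15 arrays, as did 5 of 7 probes of stomach and pancreas and 9 of 13 probes of epidermis. None of the marker probes differed between the groups except 3 of the stomach and pancreas, which are chitinase probes described below. In RNA of whole fish, fewer cells of a type cannot be told apart from less RNA per cell. Yolk absorption cannot be told apart from age either, since every later fish was older than every earlier one. Whether and when the fish were fed is not stated, so an effect of feeding or fasting cannot be told apart either. Nothing says that the fish came from separate tanks, so the p-values measure the spread among fish of 1 rearing.

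Of 15048 probes, 338 (2.25%) differed between the groups, with 189 higher (1.26%) and 149 lower (0.99%) at 71 and 77 dpf, at an adjusted p under 0.05 in limma. At an unadjusted p under 0.05 there were 2344 (15.6%). Among the 3353 named probes, 98 (2.92%) differed, with 47 higher (1.4%) and 51 lower (1.52%). The rises were larger than the falls. The median size of the change was 1.17 among the 189 rises, which ranged from 0.61 to 2.75, and 0.74 among the 149 falls, which ranged from 0.51 to 1.68. At least a 2-fold change was reached by 148 of the rises (0.984% of the tested probes) and by 15 of the falls (0.0997%). The median change of all tested probes was -0.04. The 9 earlier and the 6 later arrays did not overlap for 115 of the tested probes (0.764%), among them 43 of the 189 rises and 28 of the 149 falls. Both later time point means lay above all 3 earlier ones in 174 of the rises, and below them in 148 of the falls. The choice of the probes by these same means fixes both counts in large part.

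**Figure D1:**
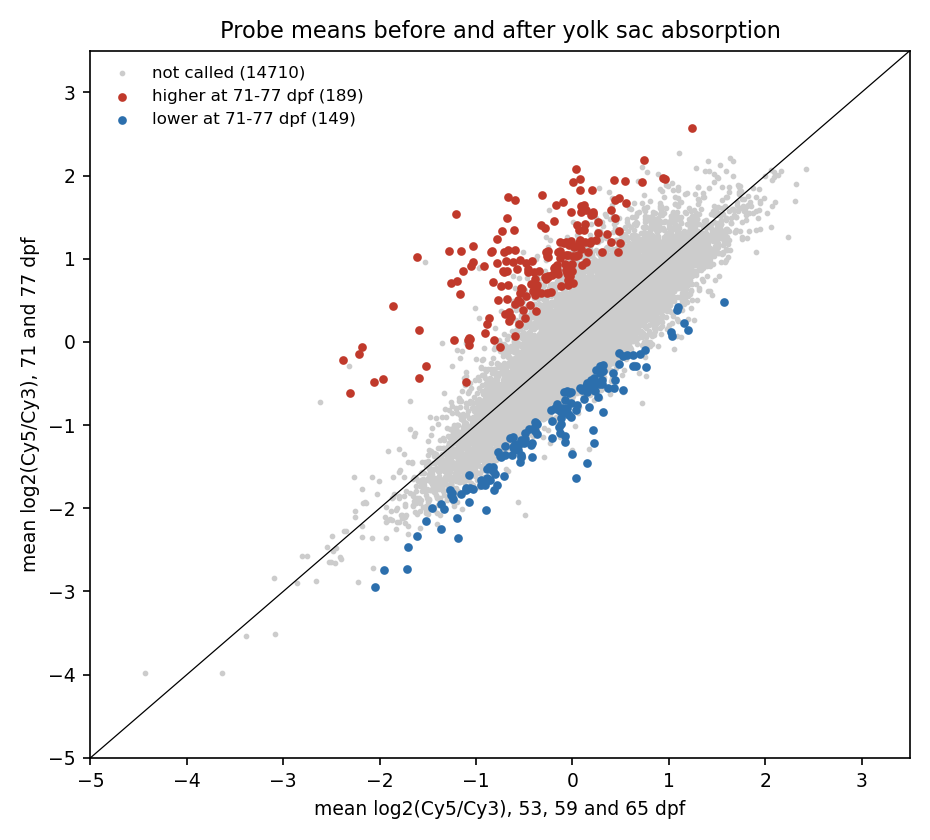
Each point is 1 tested probe, placed by its mean log2(Cy5/Cy3) over 53, 59 and 65 dpf (x axis) and over 71 and 77 dpf (y axis), with equal values on the line. The 189 rises (red) lie up to 2.75 above the line and the 149 falls (blue) up to 1.68 below it.

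These fits took the spread among fish of 1 time point, pooled over all 51 arrays, as the error. With the spread of only the 15 arrays, 201 rises and 109 falls were called (smallest adjusted p = 0.000466 in limma). Among these were 138 of the 189 rises and 85 of the 149 falls. With only the 5 time point means as data (3 against 2), no probe passed (0 probes, smallest adjusted p = 0.094 in limma, with 2049 probes at an unadjusted p under 0.05). A single array moved the counts as well. Without 77 dpf replicate 1, 78 rises and 26 falls were left, and 71 and 25 of these were among the 189 rises and 149 falls called with every fish. Without 71 dpf replicate 1 there were 72 rises and 36 falls, and without 77 dpf replicate 3 there were 250 and 365. Without all 3 fish of 77 dpf 23 rises and 8 falls were called, and without those of 53 dpf 55 and 42.

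The called probes were most extreme in 77 dpf replicate 1. Over the 189 rises, the median of an array, relative to the mean of the earlier group, was 1.26, 0.98 and 0.90 in the 3 fish of 71 dpf, and 1.82, 1.19 and 1.13 in those of 77 dpf. Over the 149 falls it was -0.85, -0.64 and -0.51 at 71 dpf, and -1.22, -0.84 and -0.46 at 77 dpf. Each of the 6 later fish therefore stood apart from the 9 earlier ones, whose medians lay between -0.33 and 0.27 over the rises and between -0.16 and 0.11 over the falls, a separation that the choice of the probes fixes in part. The 2 most extreme later arrays, 77 dpf replicate 1 and 71 dpf replicate 1, were also the dimmest later ones. Their median Cy5 signals were 240.5 and 201.5, against 304.5 to 383.5 on the other later arrays. A trait of these fish cannot be told apart from the signal of their arrays. The array of 77 dpf replicate 1 shared its slide with no other of the 15, as did those of 59 dpf replicate 3 and 65 dpf replicate 1. The 15 arrays lay on 8 slides, and 71 dpf replicate 3 and 77 dpf replicates 2 and 3 shared a slide with 59 dpf replicate 2. On the 3 slides that carried fish of both groups, the called probes had the direction of the pooled comparison in 313 of 331, 332 of 337 and 331 of 337 measured, counts that the choice of the probes on these same arrays fixes in large part.

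**Figure D2:**
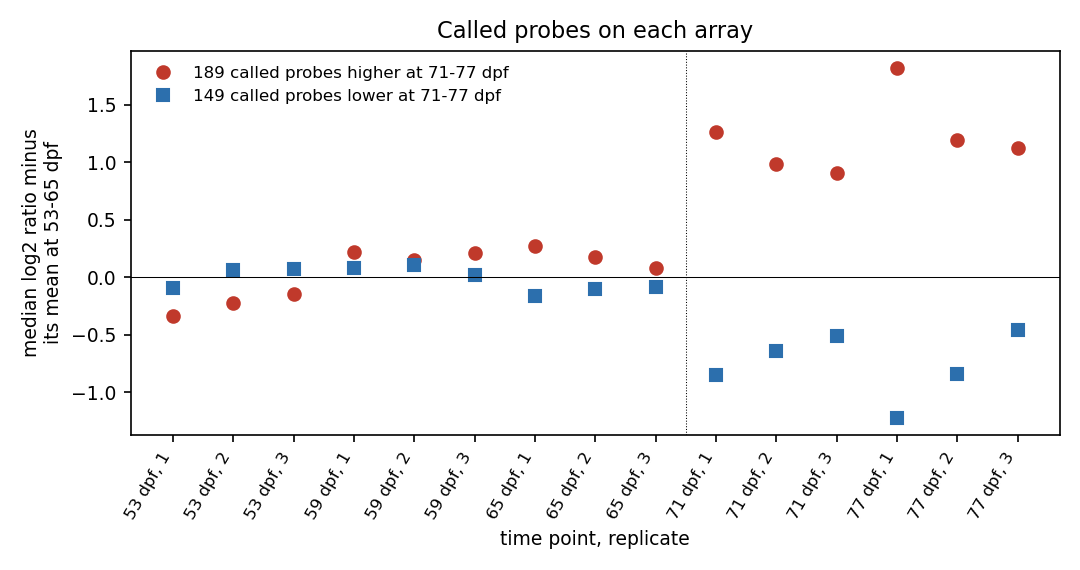
For each of the 15 arrays (x axis: time point and replicate), the points give the median log2 ratio over the 189 rises (red circles) and the 149 falls (blue squares), relative to each probe's mean at 53-65 dpf. The largest departure in both directions is that of 77 dpf replicate 1, at 1.82 and -1.22.

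Some of the largest named rises were those of probes for proteins known from the stomach and gut lining of mammals. Other probes of the same proteins did not rise. In mammals, acidic chitinase (CHIA) is secreted by the stomach and cuts chitin, the material of crustacean and insect shells, and FCGBP and the intestinal mucins are parts of the mucus secreted by goblet cells. The chitinase probe C052R001 read -3.96 at the lowest, -0.52 in the median and 0.72 at the highest on the 8 unflagged arrays of the earlier group. On the 5 unflagged arrays of the later group it read -0.04, 1.01 and 1.60. The fish at 53 dpf were far below all others, and the lowest later fish lay within the range of 59 and 65 dpf. The difference was 2.25 ± 0.36 (4.75-fold, adjusted p = 0.000404 in limma).

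Among the other chitinase probes, C219R156 was higher by 2.09 ± 0.40 (adjusted p = 0.00219 in limma) and C189R027 by 1.82 ± 0.35 (adjusted p = 0.00198). The fourth tested one, C010R051, went the other way by -0.35 ± 0.22 and did not pass the test (adjusted p = 0.471), so that the 4 probes, which may come from different gene copies, did not move alike. FCGBP was higher by 2.17 ± 0.41 (C228R142, adjusted p = 0.00211), from a range of -3.97 to 2.01 in the earlier fish with a median of -0.48, to -0.25 to 2.72 in the later ones with a median of 2.12. The signals of FCGBP and of chitinase C189R027 reached 500 on 6 of the 9 earlier arrays and on none of 53 dpf, so that the low values are the less precise ones. Of 6 probes described as an intestinal mucin-like protein, C106R006 was higher by 1.36 ± 0.28 (adjusted p = 0.00537). The 5 others read from -0.93 to -0.21 and did not pass the test (adjusted p from 0.254 to 0.879), nor did a probe of the mucin MUC5AC at -0.32 (adjusted p = 0.737).

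Most of the called chitinase, FCGBP and mucin-like probes also differed inside the earlier group. Which tissue of the whole fish their RNA came from was not measured. The 3 time point means of chitinase C052R001 were -3.41 at 53 dpf, -0.34 at 59 dpf and 0.29 at 65 dpf, followed by 1.57 at 71 dpf and 0.62 at 77 dpf. FCGBP ran from -3.23 over -0.46 to 1.66 and then to 2.32 and 0.67. An F test over 53, 59 and 65 dpf passed for both (adjusted p = 2.6e-05 and 2.7e-05 in limma), for the mucin-like probe (adjusted p = 7.3e-05) and for chitinase C189R027 (adjusted p = 0.0065), but not for chitinase C219R156 (adjusted p = 0.477). With 53 dpf left out, FCGBP differed by 0.89 (adjusted p = 0.373), the mucin-like probe by 0.48 (adjusted p = 0.501), and the 3 chitinase probes by 1.12, 1.57 and 0.97 (adjusted p = 0.166, 0.0712 and 0.228). None of the 5 then passed the test.

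Of the 8 probes for digestive enzymes, 3 were called higher and 0 lower, against 1.4% and 1.52% of all named probes. The median change was 1.00. Those 3 are the chitinases. Both probes of pepsin A, the protein-cutting enzyme of the stomach, were higher without passing the test, with differences of 1.04 ± 0.41 for C206R001 (adjusted p = 0.185) and 0.96 ± 0.33 for C151R023 (adjusted p = 0.114). The pancreatic products were lower in the later fish without passing it. Bile salt-activated lipase (CEL), which splits fat in the gut, differed by -0.19 ± 0.20 (adjusted p = 0.705) and GP2, a protein of the pancreatic secretory granule, by -0.47 ± 0.23 (adjusted p = 0.293). Without 53 dpf the median of the list was 0.22, with 0 called.

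**Figure D3:**
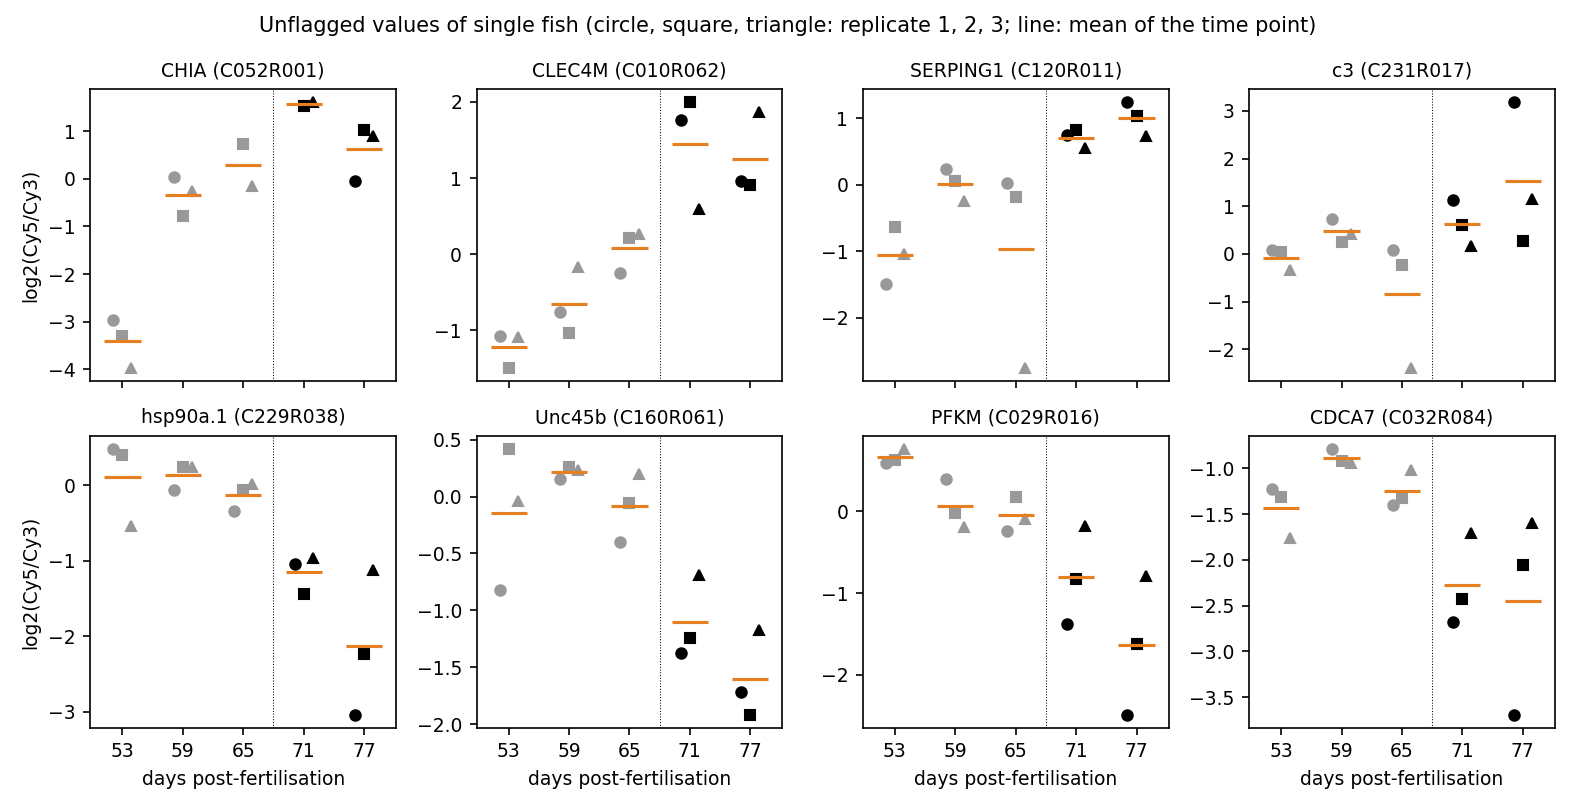
Unflagged log2(Cy5/Cy3) values of the single fish (y axis) at the 5 time points (x axis, dpf) for 8 probes, in grey before and in black after yolk absorption, with the mean of each time point as a line. Chitinase (CHIA) climbs from -3.41 at 53 dpf, whereas hsp90a.1 is near 0 at the 3 earlier time points and at -1.15 and -2.13 at the later ones.

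Some plasma proteins made by the liver were higher in the later group. Of 22 tested probes in this list, 5 were called higher and 0 lower, against 1.4% and 1.52% of all named probes. All 22 had a positive difference, with a median of 0.72 against -0.04 over all tested probes. The largest of these rises was that of an alpha-1-antitrypsin homolog (C037R051), a blood inhibitor of proteases. It read -2.28 at the lowest, 0.53 in the median and 1.20 at the highest in the 9 earlier fish, and 1.25, 1.79 and 2.01 in the 6 later fish. The groups did not overlap, although the highest earlier and the lowest later fish lay close together. The difference was 1.78 ± 0.39 (3.43-fold, adjusted p = 0.0103 in limma).

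The other called members were clotting factors and an enzyme that trims peptides. Coagulation factor VII (F7), which starts the clotting cascade with tissue factor, was higher by 0.94 ± 0.25 (adjusted p = 0.0335). Factor X (F10), the protease that makes thrombin, was higher by 0.86 ± 0.19 (adjusted p = 0.0101), from a range of -1.29 to 0.47 to one of 0.62 to 1.37 without overlap. Factor V (F5), the cofactor of factor X, rose by 0.76 (adjusted p = 0.0166). Carboxypeptidase N (CPN1), which removes end residues from kinins and complement fragments, rose by 0.79 ± 0.21 (adjusted p = 0.0373), at signals of only 557.5 and 483.5 in the medians of the earlier and the later arrays.

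A pair of fish stood out in this list. The list's median, relative to each probe's mean in the earlier group, was -1.20 in 65 dpf replicate 3, where the other 8 earlier fish lay between -0.09 and 0.52. It was 1.36 in 77 dpf replicate 1, and 0.43, 0.56, 0.66, 0.32 and 0.84 in the other later fish. Without 77 dpf replicate 1 the list held 1 called rise with a median of 0.56, and without 65 dpf replicate 3 it held 4 with a median of 0.54. The remaining call without 77 dpf replicate 1 was that of the antitrypsin homolog (adjusted p = 0.0364), whereas F7, F10 and CPN1 then had an adjusted p of 0.193, 0.0671 and 0.0781. Without 53 dpf and without 77 dpf 0 were called, at medians of 0.69 and 0.59, and 1 was called with the slide as a fixed block or with median centring.

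Further secreted inhibitors and lectins rose outside the list. SERPING1, the inhibitor of the first complement proteases, ranged from -2.75 to 0.23 in the earlier fish with a median of -0.25, and from 0.55 to 1.24 in the later ones with a median of 0.78. All 6 later fish lay above all 9 earlier ones, and the difference of 1.52 ± 0.25 (2.87-fold, adjusted p = 0.000491) passed the test without any single array. The inter-alpha inhibitor H3 (C212R146), a plasma protein that binds hyaluronan, was higher by 1.63 ± 0.41 (adjusted p = 0.0235), but by 1.19 without 77 dpf replicate 1 (adjusted p = 0.175), in which it read 3.96, and its call was also lost without 71 dpf replicate 1 or 65 dpf replicate 3 (adjusted p = 0.0803 and 0.0622). CLEC4M, in humans a lectin receptor that binds sugars of viruses and bacteria, ranged from -1.49 to 0.26 and then from 0.60 to 1.99. This difference of 1.95 ± 0.29 (3.87-fold, adjusted p = 0.000201) passed without any single array and without 53 dpf (1.64, adjusted p = 0.01). Its 3 earlier means were -1.22, -0.66 and 0.08, a difference that did not pass the F test (adjusted p = 0.779), and its later means were 1.45 and 1.25. The CLEC4M signal reached 500 on 6 of the 9 earlier arrays.

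Of 48 probes for complement and innate defence, 5 were called higher and 0 lower, against 1.4% and 1.52% of all named probes. The median change of the list was 0.51. Complement C3, the protein that coats microbes once it is cleaved, was higher by 1.23 ± 0.32 on probe C231R017 (adjusted p = 0.0277), from a median of 0.07 in the earlier fish to 0.87 in the later ones. Its 2 other tested probes read 0.77 ± 0.39 and 0.54 ± 0.31 higher without passing (adjusted p = 0.334 and 0.424). Factor I, which inactivates the active fragment of C3, was higher on both of its named probes, C052R154 by 1.28 ± 0.27 (adjusted p = 0.00661) and C128R147 by 1.10 ± 0.25 (adjusted p = 0.0131), but neither passed without 77 dpf replicate 1 (adjusted p = 0.0671 and 0.113). Galectin-2 (LGALS2), a lectin that binds galactose, was higher by 1.13 ± 0.32 on C259R028 (adjusted p = 0.0488), and the galectin-9-like probe C179R026 by 0.95 (adjusted p = 0.0314). The second galectin-9-like probe differed by -0.21 (adjusted p = 0.765), and the 3 probes of galectin-3 by -0.22, -0.29 and -0.70 (adjusted p = 0.569, 0.64 and 0.165). The 2 other galectin-2 probes read 0.73 and 0.55 higher without passing (adjusted p = 0.108 and 0.332).

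The C3 call rested on few fish, and the galectin-2 call lay near the threshold. C3 read 3.18 in 77 dpf replicate 1 against 0.16 to 1.14 in the other later fish, and -2.38 in 65 dpf replicate 3 against -0.33 to 0.74 in the other earlier fish. Without 77 dpf replicate 1 the difference was 0.82 (adjusted p = 0.218), and the call was lost without any 1 of 6 arrays, for galectin-2 without any 1 of 11. The median of the complement list, relative to each probe's mean in the earlier group, was 0.31, 0.17 and 0.24 in the fish of 59 dpf. It was 0.35, 0.35 and -0.07 at 71 dpf, and 0.96, 0.15 and 0.68 at 77 dpf. Thus 71 dpf replicate 3 and 77 dpf replicate 2 lay below every fish of 59 dpf. The list had no called member without 77 dpf replicate 1, 2 without 71 dpf replicate 1, 3 without 65 dpf replicate 3 and 0 without 53 dpf or without 77 dpf. In 77 dpf replicate 1, collagenase 3 (mmp13), a matrix-cutting protease that did not differ between the groups by the test (0.70 ± 0.44, adjusted p = 0.475), read 2.77 against at most -0.75 in the other 5 later fish, and whether these values share a source was not tested.

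**Figure D4:**
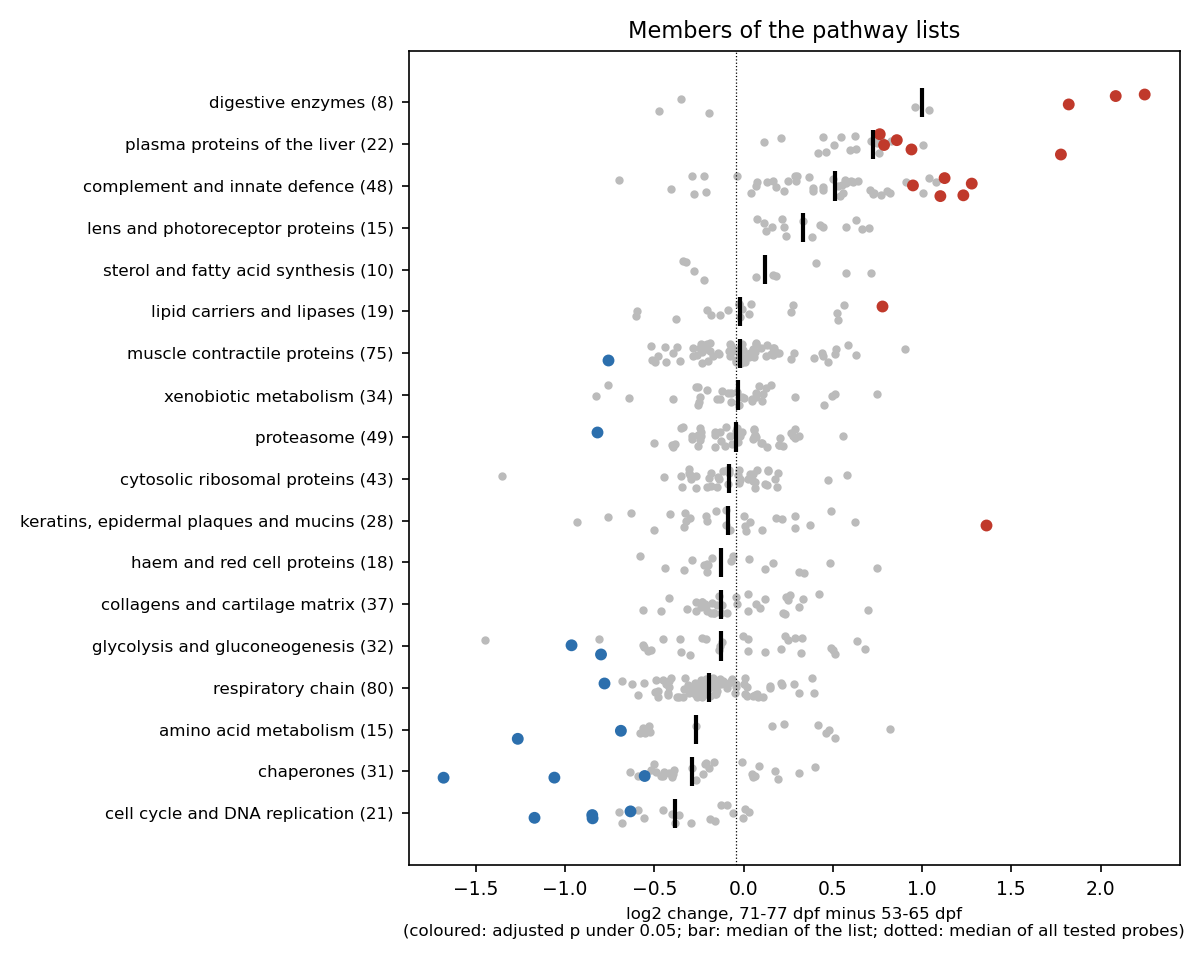
Each point is a tested probe of a list of genes with a common function (rows, with the number of probes, for lists of 8 probes or more), placed by its log2 change from 53-65 dpf to 71-77 dpf, with the calls in colour and the median of the list as a bar. Digestive enzymes (median 1.00), plasma proteins (0.72) and complement (0.51) lie to the right of the median of all tested probes (-0.04, dotted), and cell cycle genes (-0.39) and chaperones (-0.29) to its left.

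The remaining large rises had varied roles. The largest named one was a probe described as a vegetative cell wall protein (GP1, C170R100), a name taken from an alga, whose role in fish is not known. It ranged from -3.30 to 0.56 in the earlier fish, with a median of -1.61, and from 0.76 to 1.83 in the later ones, with a median of 0.91. The groups did not overlap, and the difference was 2.37 ± 0.40 (5.18-fold, adjusted p = 0.000521). The signal of GP1 reached 500 on only 5 of the 9 earlier arrays, so that its low values are the less precise ones. GP1 passed the filter only through the later group, which favours a rise. The mitochondrial uncoupling protein UCP2, a carrier of the inner membrane, was higher by 1.42 ± 0.28 (adjusted p = 0.00299), and its other probe by 0.72 ± 0.31 without passing (adjusted p = 0.244). Involucrin (IVL), in mammals a protein of the skin's horny layer, was higher by 1.57 ± 0.37 (adjusted p = 0.0156), at an unflagged signal of 500 on only 1 of 9 earlier and 4 of 6 later arrays, and lost its call without 77 dpf replicate 1 or 71 dpf replicate 1 (adjusted p = 0.127 and 0.0754). Involucrin, like GP1, passed the filter only through the later group. Lipoprotein lipase (LPL), which releases fatty acids from blood lipids, was the 1 called member of 19 lipid carriers and lipases. Over all named probes 1.4% were called higher. LPL differed by 0.78 ± 0.20 (C109R167, adjusted p = 0.0314, lost without any 1 of 6 arrays), and its other probe by 0.57 ± 0.29 (adjusted p = 0.346).

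The largest rises of all belonged to probes without a name, C223R167 with 2.75 (adjusted p = 0.00028) and C171R075 with 2.64 (adjusted p = 6e-06).

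Chaperones gave the largest fall. The protein hsp90a.1 is an HSP90 chaperone that in zebrafish works with the co-chaperone Unc45b on the folding of myosin in skeletal muscle. Probe C229R038 of hsp90a.1 read -0.54 at the lowest, 0.02 in the median and 0.48 at the highest in the 9 earlier fish. In the later fish it read -1.04, -1.44 and -0.97 at 71 dpf, and -3.04, -2.24 and -1.12 at 77 dpf. All 6 later fish lay below all 9 earlier ones. It fell by 1.68 on the log2 scale, with an SE of 0.30 (3.21-fold, adjusted p = 0.0012 in limma), and passed without any single array. Its other probe, C152R041, differed by 0.17 ± 0.14 in the other direction (adjusted p = 0.589), so that the fall holds for 1 probe of 2, which may come from different gene copies.

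Unc45b fell by 1.35 on the log2 scale, with an SE of 0.23 (C160R061, adjusted p = 0.000521), from a range of -0.82 to 0.42 with a median of 0.16 to one of -1.91 to -0.69 with a median of -1.31. The ranges met only in 53 dpf replicate 1, at -0.82, which lay below 71 dpf replicate 3, at -0.69, and the signal reached 500 on 3 of the 6 later arrays. Probe C160R061 passed the filter only through the earlier group, which favours a fall. The other Unc45b probe differed by -0.82 ± 0.27 and missed the threshold (adjusted p = 0.0957). Of 31 chaperone probes, 3 were called lower and 0 higher, against 1.52% and 1.4% of all named probes. The median change of the list was -0.29. Besides hsp90a.1 the called members were the HSP70 partners DNAJA4, which fell by 1.06 (adjusted p = 0.0463), and DNAJA1, which fell by 0.55 (adjusted p = 0.0351). The signal of DNAJA4 was under 500 on all 6 later arrays, which leaves a fall of at least 1.49-fold when signals are held at the lowest accepted one of each array. Both DnaJ calls were lost without any 1 of 10 arrays, for instance without 77 dpf replicate 1 (adjusted p = 0.24 and 0.113).

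Some genes of cell division were lower at 71 and 77 dpf. Of 21 tested probes for cell cycle and DNA replication, 4 were called lower and 0 higher, against 1.52% and 1.4% of all named probes. A negative difference was found in 19 of the 21, with a median of -0.39 against -0.04 over all tested probes. Only these 21 of the 42 described probes of the list passed the signal filter, some only through earlier time points, which favours a fall. CDCA7, a nuclear protein whose level follows the cell cycle, ranged from -1.76 to -0.79 in the earlier fish with a median of -1.22, and from -3.69 to -1.59 in the later ones with a median of -2.24. The ranges overlapped in that 53 dpf replicate 3 lay below 71 dpf replicate 3 and 77 dpf replicate 3. It fell by 1.17 on the log2 scale, with an SE of 0.23 (C032R084, adjusted p = 0.00219), and its second probe differed by -0.70 ± 0.23 (adjusted p = 0.0982).

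The other 3 called members act in DNA synthesis and mitosis. The small subunit of ribonucleotide reductase (rrm2), which makes the building blocks of DNA, fell by 0.85 (SE 0.15, adjusted p = 0.00125), from a range of -1.28 to -0.95 in the earlier fish to -2.42 to -1.23 in the later ones. KIF2C, a kinesin that takes apart microtubules at the spindle, fell by 0.85 (SE 0.17, C048R150, adjusted p = 0.00444), and its other probe differed by -0.68 ± 0.21 (adjusted p = 0.0675). MCM3, a part of the helicase that opens DNA for replication, fell by 0.63 (SE 0.18, adjusted p = 0.0446), a call lost without any 1 of 12 arrays, and its 2 other probes differed by -0.40 and -0.56 without passing (adjusted p = 0.406 and 0.13). The list held 3 called falls without 77 dpf replicate 1 or without 53 dpf, 2 with the slide as a fixed block or with median centring, and 0 without 77 dpf. MKI67, the Ki-67 antigen of dividing cells, is not in the list, and both of its probes fell, C032R131 by 0.97 (SE 0.21, adjusted p = 0.00898) and C171R107 by 0.90 (SE 0.23, adjusted p = 0.0269). The former lost its call without 77 dpf replicate 1 or 71 dpf replicate 1 (adjusted p = 0.0631 and 0.0641). PSMC3IP, a partner of the recombinases that pair DNA strands, fell by 1.12 (SE 0.19, adjusted p = 0.000521), from -1.22 to -0.56 in the earlier fish to -2.58 to -1.26 in the later fish, without overlap. The signals of PSMC3IP and of CDCA7 C032R084 reached 500 on only 2 of the 6 later arrays, so that the low values are the less precise ones. These probes, KIF2C C048R150, the called MCM3 probe and MKI67 C032R131 passed the filter only through earlier time points, so that the filter favoured their direction.

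Single enzymes of sugar and amino acid metabolism fell as well. The muscle form of phosphofructokinase (PFKM), which controls the entry of sugar into glycolysis, read 0.18 in the median of the earlier fish and -1.11 in that of the later ones, with ranges of -0.23 to 0.76 and -2.48 to -0.18. Only 71 dpf replicate 3 reached into the earlier range. PFKM fell by 1.44 on the log2 scale, with an SE of 0.27 (C029R016, 2.71-fold, adjusted p = 0.00198), whereas its other probe differed by -0.40 ± 0.23 (adjusted p = 0.426). The median was -0.13 over 32 probes for glycolysis and gluconeogenesis, a list that did not hold PFKM. Against 1.52% of all named probes called lower and 1.4% called higher, 2 of its members were called lower and 0 higher. These were phosphoglycerate kinase (PGK), at -0.96 ± 0.27 (adjusted p = 0.0495), and the muscle phosphoglycerate mutase PGAM2, at -0.80 ± 0.22 (adjusted p = 0.038), which act one after the other in glycolysis. Both were lost without any 1 of at least 10 arrays, and 0 of the list was called without 77 dpf replicate 1 or 71 dpf replicate 1.

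Of 15 probes for amino acid metabolism, 2 were called lower and 0 higher, against 1.52% and 1.4% of all named probes. Hpdl, a protein related to an enzyme of tyrosine breakdown, fell by 1.27 on the log2 scale, with an SE of 0.24 (adjusted p = 0.00173), from a range of -0.26 to 0.97 to one of -1.68 to -0.23, at a signal of 500 on 2 of the 6 later arrays. Hpdl, like Bola3 described below, passed the filter only through the earlier group, which favours a fall. The median of the list was -0.27, but 0.05 without 53 dpf, where 1 member was called higher and 1 lower. Mitochondrial aspartate aminotransferase (GOT2), which passes amino groups between aspartate and glutamate, fell by 0.69 (SE 0.16, adjusted p = 0.0111), and its 2 other probes differed by -0.53 each without passing (adjusted p = 0.157 and 0.0647). Without 71 dpf replicate 1 the GOT2 call was lost (adjusted p = 0.0733). Bola3, which helps to insert iron-sulfur clusters into mitochondrial proteins, fell by 1.13 (SE 0.21, adjusted p = 0.00133), from a median of -0.17 in the earlier fish to one of -1.14 in the later ones, again with a signal of 500 on 2 of the 6 later arrays. The respiratory chain gave 1 called fall among 80 probes, near the 1.52% of all named probes, with a median of -0.19 over the list. This was a membrane subunit of ATP synthase (Atp5g3, C167R035, -0.78 ± 0.18, adjusted p = 0.0137, but 0.0981 without 77 dpf replicate 1 and 0.0597 without 71 dpf replicate 1). Its 2 other probes differed by -0.21 and -0.24 (adjusted p = 0.677 and 0.59). The lysosomal protease legumain (LGMN) fell by 0.94 on C113R125 (adjusted p = 0.0176), with no overlap between the groups, but not past the test on its 2 other probes (-0.46 and -0.15, adjusted p = 0.247 and 0.812), and tubulin alpha-4A (TUBA4A), a part of microtubules, by 0.96 (adjusted p = 0.0277). Their calls were lost without 77 dpf replicate 1 (adjusted p = 0.0852 and 0.188) and without 71 dpf replicate 1 (adjusted p = 0.0856 and 0.105).

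The contractile apparatus of muscle showed little of this. Of 75 probes for contractile proteins, 1 was called lower, a titin probe (sls, -0.76 ± 0.20, adjusted p = 0.0299, lost without any 1 of 6 arrays), and 0 higher, with a median of -0.02. Among 49 proteasome probes 1 was lower, the subunit Psma5 (-0.82 ± 0.23, adjusted p = 0.0432, lost without any 1 of 13 arrays). Both counts are near the 1.52% of all named probes that were called lower. The 28 probes for keratins, epidermal plaques and mucins had 1 rise, the mucin-like probe above, against 1.4% of all named probes, and a median of -0.09.

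No member was called in 8 lists, where the share of calls over all named probes was 2.92%. All 15 lens and photoreceptor probes had a positive difference, with a median of 0.33, and the largest was that of gamma-crystallin M2 (GM2, 0.71 ± 0.21, adjusted p = 0.0646). The 10 probes for sterol and fatty acid synthesis had a median of 0.12, with the acyl-CoA desaturase C239R110, which puts double bonds into fatty acids, at 0.71 ± 0.27 (adjusted p = 0.168). The medians were -0.03 over 34 probes for xenobiotic metabolism, -0.13 over 37 for collagens and cartilage, -0.13 over 18 for haem and red cells, and -0.08 over 43 for cytosolic ribosomal proteins. In these lists the largest changes were those of GSTP1 (-0.83 ± 0.37, adjusted p = 0.263), mmp13, hemoglobin alpha (0.75 ± 0.29, adjusted p = 0.165) and rps23 (-1.35 ± 0.41, adjusted p = 0.0676). Only 1 clock gene and 3 hormone or growth factor genes were kept, Per1 at 0.56 ± 0.20 (adjusted p = 0.127) and, among the latter, igfbp2, a carrier of insulin-like growth factor, at 0.47 ± 0.25 (adjusted p = 0.373).

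Neither of the steps from 65 to 71 dpf and from 71 to 77 dpf, taken alone, carried the called differences past the threshold. Between 65 and 71 dpf, the days on either side of yolk absorption, limma called 0 probes, with 865 (5.73%) at an unadjusted p under 0.05. Between 71 and 77 dpf it called 1 (0.00663%, with 4.78% at an unadjusted p under 0.05), C065R131, a probe without a name that was higher at 77 dpf by 2.44 (adjusted p = 0.0192). Within the earlier group the F test called 28 of 15056 probes (0.186%). Among these were 13 of the 189 rises and 0 of the 149 falls. The 13 included chitinase C052R001 and C189R027, FCGBP, the mucin-like probe and both probes of the mitochondrial ES1 protein homolog (C147R042 and C011R096). The same earlier arrays also entered the comparison that chose the rises and the falls, so these counts are no separate test.

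Fish outside the comparison were then set beside it. The values of the 6 arrays of 41 and 47 dpf and of the 6 of 83 and 89 dpf had no part in the differences that chose the probes, although 1 estimate of the spread served both comparisons. Between these groups, 3839 of 15069 probes (25.5%) were called, 1795 higher (11.9%) and 2044 lower (13.6%) later. Of the 189 rises, 183 could be tested there, and 171 were called higher as well and 0 lower, which is 90.5% of all 189 rises and 9.53% of the probes called higher in the wider comparison. Of the 149 falls, 107 were called lower and 0 higher, which is 71.8% of the falls and 5.23% of the wider list. The median change there was 2.07 over the rises and -0.73 over the falls, against -0.08 over all probes tested. Of the 21 cell cycle probes 16 were called lower and 0 higher, with a median of -1.18, and of the 31 chaperones 17 and 0, with -0.58. Of the 8 digestive enzymes 6 were called higher and 1 lower (median 2.58), of the 22 plasma proteins 12 and 2 (median 0.78), and of the 48 complement probes 20 and 3 (median 0.61). Glycolysis and gluconeogenesis gave 2 higher and 6 lower (median -0.21). Amino acid metabolism and the respiratory chain did not keep their negative medians there. The former had 5 called higher and 4 lower (median 0.105), and the latter 12 and 7 (median 0.02). The lists hold only named probes, and the shares of calls over all named probes were not counted in this wider comparison.

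The falls were partly undone at 89 dpf. Relative to the mean of the earlier group, the median of the 149 falls was -0.65 at 71 dpf, -0.84 at 77 dpf, -0.91 at 83 dpf and -0.42 at 89 dpf, while that of the 189 rises was 1.05, 1.34, 1.46 and 1.36. Between 83 and 89 dpf, a test added after these values had been seen, 216 probes (1.43%, with 9.69% at an unadjusted p under 0.05) were called, 87 (0.577%) higher and 129 (0.856%) lower at 89 dpf. Among the 149 falls, 15 were called higher at 89 dpf and 0 lower, and among the 189 rises 6 were called higher and 19 lower. The mean of hsp90a.1 went from -2.56 at 83 dpf to -0.07 at 89 dpf (adjusted p = 0.0019 in limma), and that of Unc45b from -1.94 to -0.35 (adjusted p = 0.0081). KIF2C went from -2.21 to -0.94 (adjusted p = 0.0069), MKI67 on C032R131 from -3.06 to -1.50 (adjusted p = 0.0064) and CDCA7 from -3.29 to -1.82 (adjusted p = 0.017). PFKM stayed low, with -2.10 and -2.14 (adjusted p = 1). With the spread of only the 6 arrays of 83 and 89 dpf as the error, 39 probes were called in place of 216.

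**Figure D5:**
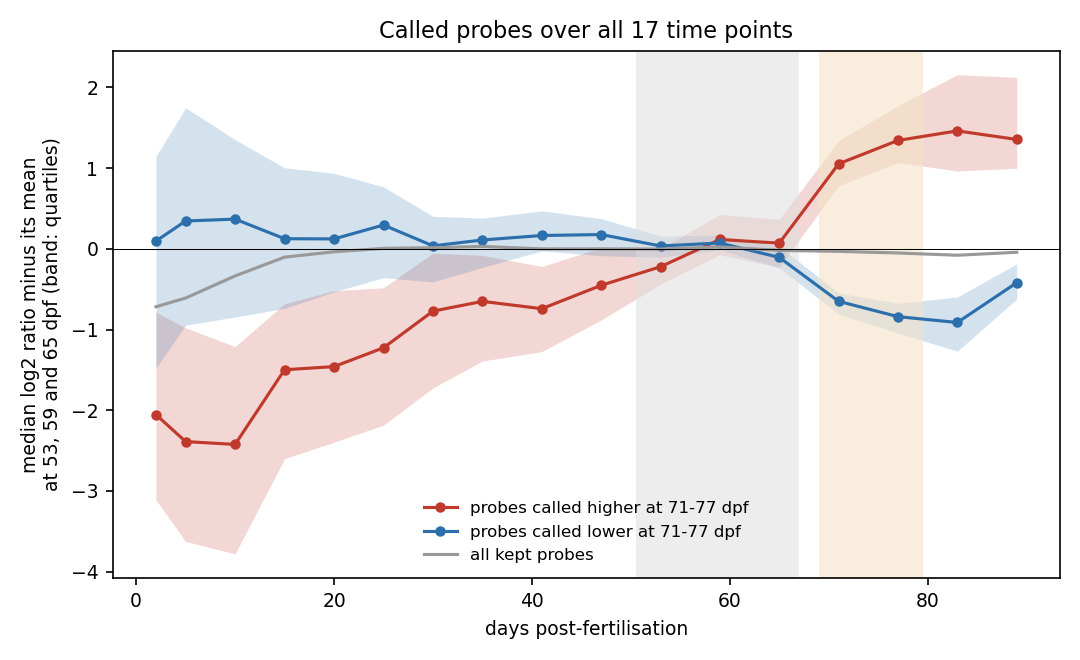
Medians (points) and quartiles (bands) of the 189 rises (red) and the 149 falls (blue) over all 17 time points, as log2 ratios relative to each probe's mean at 53, 59 and 65 dpf, with the earlier group shaded grey and the later one shaded orange. From 65 to 71 dpf the median moves from 0.07 to 1.05 for the rises and from -0.11 to -0.65 for the falls. The choice of the probes fixes this step in part. The falls come back from -0.91 at 83 dpf to -0.42 at 89 dpf.

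Over the whole course the rises had been climbing since early development, with a median of -2.42 at 10 dpf, -0.74 at 41 dpf, -0.45 at 47 dpf and -0.22 at 53 dpf. The median of the falls lay between -0.11 and 0.29 from 15 dpf to 65 dpf, over members that went both ways. In that time the mean of MKI67 on C032R131 went from 1.47 to -0.56 and that of CDCA7 from 0.33 to -1.24. The mean of rrm2 went from 0.35 to -1.10 and that of MCM3 from 0.22 to -1.68. That of PFKM climbed from -3.92 at 15 dpf to 1.86 at 35 dpf. It was then lower at each following time point, with 0.66 at 53 dpf and -0.05 at 65 dpf, so that its decline began before the earlier group. These courses before 53 dpf were not tested.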

How the data were processed

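The intensities deposited by the authors are linear spot medians of Cy5 and Cy3, quantified in ImaGene and already corrected for background, beside a flag per spot. The method of that correction is not given in the sources used here. The authors also deposited log2 ratios of Cy5 over Cy3, Lowess-normalized in GeneSpring and centred probe by probe.

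From the intensities, signals below 1 were set to 1, log2 ratios were normalized by loess within each array, flagged spots had weight 0 and were left out, and control spots were left out. A single limma 3.58.1 model (lmFit and eBayes, R 4.3.3) with 1 mean for each time point, fitted to the 51 arrays, gave every comparison, with Benjamini-Hochberg adjustment over all tested probes and a threshold of 0.05, two-sided. The fit was tested on simulated data. Each probe has 1 spot, and the values of different probes for a gene were not averaged. The named probes are the top 12 called rises and the top 12 called falls by size with a name and with an unflagged signal from 500 to 60000 on all 3 arrays of a time point of the higher group, and up to 4 called members (otherwise up to 2 members) of each of 20 gene lists. F5, MKI67 probe C171R107, the galectin-9-like probe, pepsin, CEL, GP2 and other probes of named genes were added after their values had been seen. The comparison, the lists and the rule were chosen with earlier results of these data known. Names came from the study's tables of changed entities, so named probes are no unbiased sample. Slides came from the scanner files. Replicate numbers name fish and pair none.

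Arrays have no sequencing depth, and the number of fish limits the precision. Alternatives are given in the closing section. The authors' tables of fold changes were not used. No genome or probe sequence was used here. One probe that the naming rule selects is not reported here.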

Additional observations from a re-analysis of the deposited data

Results flagged for a closer look

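Among 114 sets of arrays (57 named probes, each in the 9 earlier and the 6 later fish), the highest or the lowest fish lay far from the others in 17. The sets pool time points, and the probes were selected and share their fish, so this count cannot be set against a rate by chance. Of these, 9 were in 77 dpf replicate 1. In that fish the inter-alpha inhibitor H3 read 3.96 (next 1.64), C3 3.18 (next 1.14), factor I C128R147 1.32 (next -0.13), F10 1.37 (next 0.80), mmp13 2.77 (next -0.75) and the anion exchanger slc4a1 0.68 (next -0.76), all highest of the 6. It was lowest for Atp5g3 at -1.22 (next -0.45), TUBA4A at -2.53 (next -1.40) and DNAJA4 at -2.48 (next -1.15).

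A further 4 were in 65 dpf replicate 3, all lowest of the 9 earlier fish, with the inter-alpha inhibitor H3 at -1.94 (next -0.23), C3 at -2.38 (next -0.33), factor I C128R147 at -2.95 (next -1.60) and F7 at -2.48 (next -0.89). The other 4 were LPL at -0.89 in 53 dpf replicate 2, mmp13 at -2.51 in 65 dpf replicate 1, Psma5 at -0.52 in 65 dpf replicate 2 and PGK at 1.93 in 53 dpf replicate 3.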

How the results depend on the processing

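The count of 338 probes (189 higher and 149 lower) was 107 (87 and 20) with median centring, which moved the median of all probes to -0.11 from -0.04. It was 132 (76 and 56) with the slide as a fixed block, where only 59 of the 189 rises and 38 of the 149 falls kept their call. The count was 519 (242 and 277) with a replicate block and 93 (62 and 31) with no filter on dim probes. It was 184 (94 and 90) for probes of at least 500 on all 15 arrays, 228 (141 and 87) with the time point as a random block, 95 falls with 1 mean per pooled group and 0 (0 and 0) on the 5 time point means. The methods' t-test gave 124 (114 and 10) at their threshold and 1 (1 and 0) after adjustment. A fold change of at least 2 left 163 with 15 falls, and an unadjusted p of at most 0.01 with that fold left 25 falls (230 in all). The share of rises among the calls was 55.9%, and 81.3% with median centring. Leaving out 1 array gave 104 to 615 probes, 72 to 250 rises and 26 to 365 falls. Without 53 dpf there were 97 (55 and 42), without 59 dpf 223 with 59 falls, and without 77 dpf 31 (23 and 8). The cause of these shifts was not tested. No called probe changed sign under any alternative. Of the 42 called named probes, 19 passed without each single array. The uncalled thyroid hormone receptor thra1 (C110R096, -0.21) read -0.38 to 0.0085 without 1 array, with the highest value without 77 dpf replicate 3. Between 83 and 89 dpf 39 probes were called with 6 arrays in place of 216, an alternative chosen after seeing the data, as were the counts of lists without single arrays. Equal replicate numbers do not pair the fish. Their deviations correlated with a median of 0.04 over 30 pairs, against -0.03 over 60 other pairs, and 8 of 15 arrays correlated best with their own number. Signals near 500 and 3 fish per time point limit the precision.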

Other observations

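Among the 189 rises, 19 were called lower at 89 than at 83 dpf. The named ones given here were picked after their values had been seen and carry no test as a group. RGC32 on C152R138, 1 of its 2 tested probes, was higher at 71-77 dpf by 1.26 and lower at 89 than at 83 dpf, where it differed by -2.18, and the growth arrest gene GADD45B did so by 1.15 and -1.97. The transcription factor CEBPD was higher by 1.24 and 1.12 on its probes C044R110 and C026R028, and differed by -1.89 on each between 83 and 89 dpf. TXNIP, a regulator of sugar uptake, on C057R028, 1 of its 2 tested probes, was higher by 0.83 and then differed by -1.74, and MAP1LC3B, a protein of autophagosomes, by 0.62 and -1.59.

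Among the named falls, 12 of 51 have the word mitochondrial in their description, a word chosen after the values had been seen. Of 240 kept probes with that word, 12 were called lower and 3 higher, with a median of -0.22, against 1.52% lower and 1.4% higher among all tested named probes. They include ribosomal proteins of the mitochondrion (MRPL37, which fell by 0.76, and mrpl52, by 0.80 on 1 of its 2 tested probes) and the import protein timm13, which fell by 0.88 on 1 of its 3 tested probes. The other probes of these genes did not pass the test. Between 41-47 and 83-89 dpf, 39 of the 240 probes with that word were called higher and 42 lower, with a median of -0.13. Over all probes tested there, 11.9% were called higher and 13.6% lower, and the shares over named probes were not counted.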
